A study of Mus musculus with 14 samples.

Results

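The 9 genes described here encode the subunits of the class I phosphoinositide 3-kinases (PI3K): the catalytic subunits *Pik3ca*, *Pik3cb*, *Pik3cd* and *Pik3cg*, and the regulatory subunits *Pik3r1*, *Pik3r2*, *Pik3r3*, *Pik3r5* and *Pik3r6*. They were taken by gene name out of 49315 genes in the spleen count table and 18603 genes in the ovary table, and all 9 are listed in both. The family was chosen by the level of *Pik3cb*, which was higher in mice without *Zfp36l2* than in wild-type mice in both tissues. The genotype difference of *Pik3cb* is therefore given as a description, without a test, and the other 8 genes were tested as part of the fit over all genes.

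Poly(A) RNA was measured by RNA-seq in the spleens of 4 WT and 4 L2-cKO mice and in the ovaries of 3 WT and 3 L2-cKO mice, with 1 animal per library. In the L2-cKO mice *Zfp36l2*, which encodes an RNA-binding protein that promotes the decay of mRNAs with AU-rich elements, was deleted by Cre-mediated removal of exon 2, which is flanked by loxP sites. WT animals were littermates, and both genotypes carried the CMV-*Cre* transgene, whose promoter is active in the early embryo and deletes the gene in all tissues and in germ cells, so that no cell type was targeted on its own. The knockout is named L2-fKO in the study's methods, and the labels name the spleen source as spleen organoid. The WT spleens came from 2 females and 2 males, the L2-cKO spleens from 1 female and 3 males, and all ovaries from females. Ages are not in the labels, and the study's text speaks of pups in the days after birth. L2-cKO spleen 3 and L2-cKO ovary 1 came from the same animal. Levels are given as the authors' normalized counts, which are counts divided by 1 size factor per library, and the spleen and ovary tables were normalized separately.

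Class I PI3Ks phosphorylate the membrane lipid PIP2 to PIP3, which recruits AKT, BTK and other proteins with lipid-binding domains and so activates growth and survival pathways, among them mTOR, while keeping the FOXO transcription factors out of the nucleus. In class IA, p110α, p110β or p110δ, the products of *Pik3ca*, *Pik3cb* and *Pik3cd*, pairs with p85α, p85β or p55γ, the products of *Pik3r1*, *Pik3r2* and *Pik3r3*, which stabilize the catalytic subunit and bind phosphorylated receptors and adaptors. In class IB, p110γ from *Pik3cg* pairs with p101 from *Pik3r5* or p84 from *Pik3r6* and acts below G protein-coupled receptors, mainly in leukocytes. p110α and p110β are present in most tissues, and p110δ is best known in lymphocytes and other leukocytes.

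The AU-rich 7-mer UAUUUAU, the element to which ZFP36L2 binds, was first searched for in the members, taking for every gene the longest 3′UTR annotated by GENCODE (release M21, build GRCm38). *Pik3cb* had 4 such 7-mers in a 3′UTR of 3059 nt, more than any other member. *Pik3cd* had 2 in 1472 nt, and *Pik3ca* (5655 nt), *Pik3r1* (4317 nt) and *Pik3r3* (3224 nt) had 1 each. No UAUUUAU was found in these windows of *Pik3cg* (2408 nt), *Pik3r2* (597 nt), *Pik3r5* (1599 nt) and *Pik3r6* (654 nt). Of 21037 mouse genes with an annotated 3′UTR, 27.6% had at least 1 UAUUUAU, 10.4% had at least 2 and 1.75% had at least 4. Among the 1896 genes with a 3′UTR of 2500 to 3500 nt, the length class of *Pik3cb* and *Pik3r3*, these shares were 54.2% for at least 1 and 3.11% for at least 4. The shorter AUUUA, which lies within every UAUUUAU, occurred 7 times in *Pik3cb*, 11 in *Pik3ca*, 8 in *Pik3r1*, 6 in *Pik3r3*, 4 each in *Pik3cd* and *Pik3cg*, once each in *Pik3r5* and *Pik3r6*, and not in *Pik3r2*. Motifs were searched on the transcript strand only. The 30 bases around the sites of *Pik3cb* are shown because this gene chose the family. Those of *Pik3cd* are shown because it is the other catalytic subunit with more than 1 site. That of *Pik3r3* is shown because its L2-cKO libraries all lay above WT in both tissues. Its ovary difference missed the threshold (limma adjusted p = 0.0820). The sites of *Pik3ca* and *Pik3r1*, 1 each, are not printed, and the groups of these genes overlapped in both tissues. Capitals mark the 7-mer.
Pik3cb site 1: aauuuuguuaaUAUUUAUcaugauggcauc
Pik3cb site 2: ugcugcauauaUAUUUAUaaaauuucuagu
Pik3cb site 3: gaaaaggaaucUAUUUAUggaauaaacucg
Pik3cb site 4: uguucuuaaugUAUUUAUuaaaauguauaa
Pik3cd site 1: cacugguaauuUAUUUAUgacucgaaaugu
Pik3cd site 2: guaugccauguUAUUUAUugaaaagagucu
Pik3r3 site 1: gggcagccaucUAUUUAUggauucacacuc

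The 4 *Pik3cb* 7-mers start 517, 619, 875 and 940 nt into its 3′UTR and leave 2113 nt between the last of them and the 3′ end. They lie on the minus strand at chr9:99039178-99039207, chr9:99039076-99039105, chr9:99038820-99038849 and chr9:99038755-99038784. The *Pik3cd* sites, on the minus strand at chr4:149650450-149650479 and chr4:149649359-149649388, start 172 and 1263 nt into its 3′UTR. The *Pik3r3* site, on the plus strand at chr4:116301194-116301223, starts 1373 nt into its 3′UTR. Each printed site is in 1 exon. With the 3′UTR of median length in place of the longest, the count of *Pik3ca* was the same in 3276 nt, the windows of *Pik3cb* and *Pik3cd* were of the same or nearly the same length (3059 and 1470.0 nt) and held the same counts, and *Pik3r1* had 0 in 1216 nt. That window of *Pik3r3* is 9 nt long, too short for its count of 0 to say anything of the gene. A motif match is a description of the sequence, and binding was not measured in these data.

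**Figure D1:**
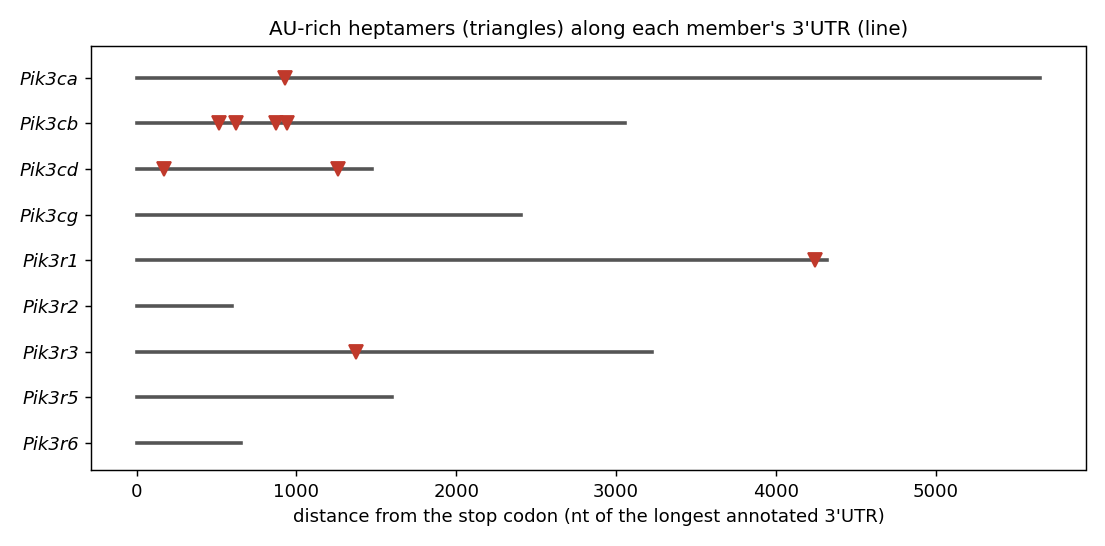
Positions of the UAUUUAU 7-mers (triangles) along the longest annotated 3′UTR of each member (horizontal lines, in nt from the stop codon). The 4 triangles of *Pik3cb* lie between 517 and 940 nt, and 4 members have none.

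The level of *Zfp36l2* followed the labels: 4362 to 7327 normalized counts in WT spleens against 276 to 398 in L2-cKO spleens, and 4745 to 4906 in WT ovaries against 758 to 1011 in L2-cKO ovaries. Counts on genes ranged from 39138010 to 45167464 per spleen library, and reads recovered from the ovary values from 31052510 to 44270070 per ovary library. WT spleen 1 and L2-cKO spleen 4 had the highest *Pik3cd*, *Pik3r5*, B cell marker and NK cell marker levels of each group and are called here the libraries that stood apart in these levels. Spleen results of the members that depend on them are given with and without both. For the pathway genes only the count of calls is given that way. Over all genes, WT spleen 3 was farther from the other WT spleens (101 to 140 times counting error by chi-square) than WT spleen 1 was from WT spleens 2 and 4 (58.5 and 76.1), and it had the lowest B cell and T cell marker sums of the 8 spleens (14825 and 3625 normalized counts). L2-cKO spleen 4 was at 110 to 236 from the other L2-cKO spleens. Calls of members that change without WT spleen 3 are given as well, and for the pathway genes again only the count. Of 16911 genes tested in the spleen, 6.89% were called higher and 6.51% lower in L2-cKO at an adjusted p below 0.05, and of 18504 genes tested in the ovary 1.23% were called higher and 0.351% lower. In bulk tissue, fewer cells of a type and less RNA per cell cannot be told apart. The summed level of 8 oocyte markers was 109016 to 133113 normalized counts in the ovaries and 12.1 to 40.2 in the spleens, and that of 9 erythroid markers 411881 to 863029 in the spleens. Apart from the neutrophil and platelet lists given with *Pik3cg*, the spleen calls were 6 of 8 mast cell and basophil markers, 3 of 7 fibroblast, 2 of 9 macrophage and 1 of 6 endothelial markers higher, 4 of 5 pancreatic acinar markers tested and 1 of 5 NK cell markers tested lower, 1 higher (*Inhbb*) and 1 lower (*Star*) of 5 granulosa and theca markers tested, and 0 of 9 B cell, 8 T cell and 9 erythroid markers (edgeR). In the ovary 1 marker each of the T cell, fibroblast and endothelial lists was called higher, and 0 of the other 10 lists (limma). Their part in the results below was not tested.

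Of the 4 catalytic subunits, *Pik3cb* alone differed between genotypes by more than 2-fold in both tissues. *Pik3cb* (p110β; chr9:99036654-99140621, minus strand, 3 annotated transcripts) had 1691, 1587, 2106 and 1636 normalized counts in WT spleens and 3883, 3936, 5233 and 2675 in L2-cKO spleens. In the ovaries it had 608, 577 and 649 in WT and 1281, 1980.0 and 1319.8 in L2-cKO. Every L2-cKO library was above every WT library in both tissues, with the lowest L2-cKO spleen, number 4, being 1 of the libraries that stood apart. The means were 1755 ± 238 (SD, n = 4) and 3932 ± 1045 (SD, n = 4) in the spleen, a ratio of 2.24, and 611 ± 36.1 (SD, n = 3) and 1527 ± 393 (SD, n = 3) in the ovary, a ratio of 2.498. The log2 fold changes were 1.16 ± 0.19 (SE) in the spleen and 1.29 ± 0.17 (SE, on log2 of the normalized count plus 1) in the ovary. Without the spleens that stood apart the spleen log2 fold change was 1.28. Over all alternatives it stayed between 1.00 and 1.30 in the spleen and between 1.09 and 1.40 in the ovary, where the lowest value was that without L2-cKO ovary 2. Marker sums also differed between the genotypes in the ovaries. The T cell sum (4 of 8 markers listed) was 153 to 179 normalized counts in WT and 314 to 434 in L2-cKO ovaries. The macrophage sum was 2991 to 3579 and 4021 to 5392, and the endothelial sum 13476 to 14183 and 16338 to 19507, without overlap in any of the 3. The pancreatic acinar sum was lower without overlap, at 1519 to 1779 in WT and 780 to 926 in L2-cKO ovaries. Sums of the other lists overlapped. Of individual genes tested in the ovary, 13.2% lay entirely above WT and 12% entirely below. L2-cKO ovary 2, which had the highest *Pik3cb* level, had a granulosa and theca marker sum of 34525, against 74662 and 83056 in the other L2-cKO ovaries and 77441 to 90584 in WT. The part of these markers in the ovary levels of *Pik3cb* and *Pik3r3* was not tested.

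**Figure D2:**
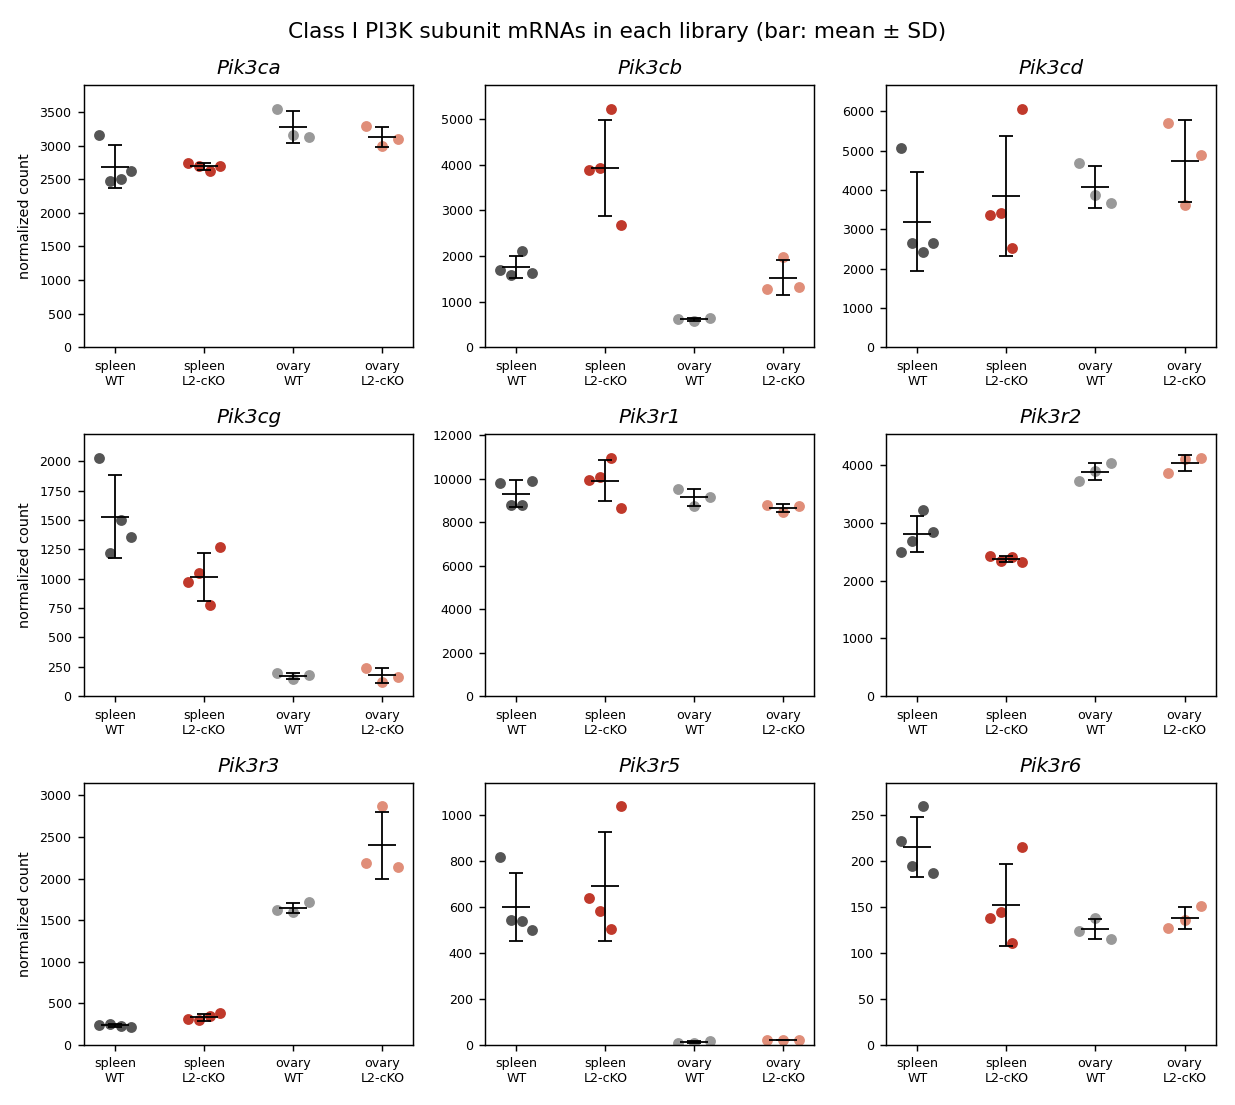
Normalized counts (vertical axes, linear, from 0) of the 9 members in every library; each point is 1 animal, horizontal bars are group means and error bars are SD. All L2-cKO points of *Pik3cb* and *Pik3r3* lie above all WT points in both tissues, while those of *Pik3ca* and *Pik3r1* overlap.

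*Pik3ca* (p110α; chr3:32397671-32468486, plus strand), the ubiquitous isoform that acts below growth factor receptors, had 3159.7, 2476, 2496 and 2622 normalized counts in WT spleens and 2745, 2695, 2628 and 2695 in L2-cKO spleens. In the ovaries it had 3548, 3151 and 3123 in WT and 3296, 2995 and 3099 in L2-cKO. The groups overlapped in both tissues, and the 4 L2-cKO spleens lay closer together (SD 48.1) than the 4 WT spleens (SD 321). Its log2 fold change was -0.00 ± 0.10 (SE) in the spleen (edgeR adjusted p = 0.995) and -0.06 ± 0.08 (SE) in the ovary (limma adjusted p = 0.718).

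*Pik3cd* (p110δ; chr4:149649168-149702571, minus strand), the isoform best known in lymphocytes, varied more between animals of a group than between genotypes. It had 5072, 2655, 2424 and 2639.6 normalized counts in WT spleens and 3365, 3420.2, 2529 and 6068 in L2-cKO spleens, so that the libraries standing apart, WT spleen 1 and L2-cKO spleen 4, held the highest value of each group. The summed level of 9 B cell markers was 75694 in WT spleen 1 against 14825 to 34525 in the other WT spleens, and 41447 in L2-cKO spleen 4 against 16002 to 25952 in the other L2-cKO spleens; its part in the *Pik3cd* level was not tested. The log2 fold change of *Pik3cd* was 0.27 ± 0.31 (SE, adjusted p = 0.606), 0.27 ± 0.13 (SE, adjusted p = 0.197) without both libraries and -0.05 without L2-cKO spleen 4 alone. It was 0.58 without WT spleen 1 alone (edgeR adjusted p = 0.197) and 0.71 among male libraries (edgeR adjusted p = 0.127). In the ovaries it had 4679.9, 3877 and 3671 in WT and 5702, 3612 and 4900.0 in L2-cKO, which overlapped (log2 fold change 0.20 ± 0.17, limma adjusted p = 0.599).

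*Pik3cg* (p110γ; chr12:32173473-32208659, minus strand), the class IB isoform of myeloid cells and platelets, had 2033, 1223, 1502 and 1353 normalized counts in WT spleens and 971, 1047, 774 and 1267 in L2-cKO spleens. The mean in L2-cKO was 66.4% of WT, with an overlap of 1 library, L2-cKO spleen 4, above the lowest WT spleen. Its log2 fold change was -0.59 ± 0.20 (SE), which missed the threshold (edgeR adjusted p = 0.0764) and passed it without L2-cKO spleen 4 (-0.72, adjusted p = 0.0324), without both libraries that stood apart (-0.55, adjusted p = 0.0338) with DESeq2 (adjusted p = 0.0323) and with no filter on low counts (-0.57, adjusted p = 0.0472). In the other 12 alternatives it missed the threshold, and it was nearest to 0 among male libraries (-0.22, adjusted p = 0.3598). Beside it, all 9 neutrophil markers were called lower in L2-cKO spleens, with a summed level of 10017 to 54432 against 148911 to 242540 in WT, and all 10 megakaryocyte and platelet markers were lower, with 1536 to 1999 against 30197 to 59122. None of the markers of these lists was at 0 in any spleen, and their part in the *Pik3cg* level was not tested. In the ovaries *Pik3cg* had 193, 145 and 178 in WT and 242, 120.2 and 163 in L2-cKO (log2 fold change -0.03 ± 0.27, limma adjusted p = 0.970).

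Of the 5 regulatory subunits, *Pik3r3* was the only one whose L2-cKO libraries all lay above the WT libraries in both tissues, and it was the only tested member to pass the test, in the spleen. Of all genes tested, 9.83% lay entirely above WT in the spleen and 13.2% in the ovary. The share of genes that did so in both tissues was not counted. *Pik3r3* (p55γ; chr4:116221618-116303056, plus strand), a shorter class IA regulatory subunit, had 238, 255, 223 and 217 normalized counts in WT spleens and 304, 295, 342 and 385 in L2-cKO spleens. The means were 233 ± 16.9 (SD, n = 4) and 332 ± 41.1 (SD, n = 4), and the log2 fold change was 0.50 ± 0.15 (SE, edgeR adjusted p = 0.0478). This call held with DESeq2 (adjusted p = 0.00569) and with DESeq2's size factors in edgeR, and was lost in the other 14 alternatives, with adjusted p-values of 0.0519 to 0.148 and log2 fold changes of 0.42 to 0.55; without the 2 libraries that stood apart it was 0.43 (adjusted p = 0.0732), and without WT spleen 3 it was 0.48 (adjusted p = 0.0652). In the ovaries, where *Pik3r3* was higher than in the spleens, it had 1626, 1601 and 1714 in WT and 2187, 2867 and 2139 in L2-cKO. The means were 1647 ± 59.4 (SD, n = 3) and 2397 ± 407 (SD, n = 3), and the log2 fold change of 0.53 ± 0.12 (SE) missed the threshold (limma adjusted p = 0.0820), but passed it with DESeq2 on recovered reads (adjusted p = 0.00431) and without L2-cKO ovary 2 (0.39, adjusted p = 0.0329), the library with the highest *Pik3r3* level and the lowest granulosa and theca marker sum. The T cell, macrophage, endothelial and pancreatic acinar marker sums given with *Pik3cb* differed between the same ovaries, and their part was not tested. A protein-coding model on the same strand, *Gm49337*, overlaps *Pik3r3* in the annotation and had 0 reads in the 8 spleens, so reads that cannot be assigned between them may be missing from the *Pik3r3* counts; unconfirmed models on the same strand also overlap *Pik3ca* (*Gm37123*, 209 reads in the 8 spleens) and *Pik3r1* (*Gm36638*, 26 and 14 reads at 2 models).

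*Pik3r1* (p85α, p55α and p50α; chr13:101680563-101768217, minus strand), the main class IA regulatory gene, had the largest normalized counts of the family in every library. It had 9801, 8786, 8798 and 9886 in WT spleens and 9937, 10067, 10979.5 and 8667 in L2-cKO spleens. The ovaries had 9556, 8738 and 9144 in WT and 8801, 8468 and 8729.6 in L2-cKO. The groups overlapped, with log2 fold changes of 0.09 ± 0.11 (SE, edgeR adjusted p = 0.633) in the spleen and -0.08 ± 0.06 (SE, limma adjusted p = 0.588) in the ovary.

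*Pik3r2* (p85β; chr8:70768176-70776713, minus strand) had 2491, 2698, 3226 and 2849 normalized counts in WT spleens and 2422, 2338, 2418 and 2329 in L2-cKO spleens. Every L2-cKO spleen was below every WT spleen by this measure, as for 10.5% of all genes tested, and the mean was 84.4% of WT. The log2 fold change of -0.25 ± 0.10 (SE) did not pass the test over all genes (edgeR adjusted p = 0.140), nor in any alternative (adjusted p from 0.0703 to 0.404). In the ovaries it had 3733, 3911 and 4039.8 in WT and 3877, 4106 and 4137 in L2-cKO, which overlapped (log2 fold change 0.05 ± 0.06, limma adjusted p = 0.720). An opposite-strand model, *6330537M06Rik*, overlaps *Pik3r2*; the authors counted reads by strand.

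*Pik3r5* (p101; chr11:68432121-68497849, plus strand) and *Pik3r6* (p84; chr11:68503019-68552698, plus strand), the class IB regulatory genes, are neighbours on chromosome 11. *Pik3r5* had 819, 541, 537 and 499 normalized counts in WT spleens and 638, 581, 505 and 1038 in L2-cKO spleens. Its highest values were in WT spleen 1 and L2-cKO spleen 4, as for *Pik3cd*, and its log2 fold change was 0.21 ± 0.25 (SE, edgeR adjusted p = 0.624), 0.12 without both (adjusted p = 0.551) and -0.07 without L2-cKO spleen 4. It was 0.39 without WT spleen 1 (edgeR adjusted p = 0.333) and 0.55 among male libraries (edgeR adjusted p = 0.202). In the ovaries it was listed at 9.73, 9.19 and 18.4 in WT and 22.4, 20.6 and 20.5 in L2-cKO, which rest on 8 to 25 reads per library; the log2 fold change was 0.78 ± 0.35 (SE, limma adjusted p = 0.317), and it passed the filter on low values with 3 L2-cKO libraries and 1 WT library. *Pik3r6* had 221, 195, 259 and 187 in WT spleens and 138, 144, 111 and 215 in L2-cKO spleens, where again L2-cKO spleen 4 was the highest of its group. Its log2 fold change was -0.50 ± 0.23 (SE, edgeR adjusted p = 0.182), and it passed the test without L2-cKO spleen 4 (-0.72, adjusted p = 0.0302) and without both libraries that stood apart (-0.71, adjusted p = 0.0445). Only these 2 of 16 alternatives passed, and both left out L2-cKO spleen 4. The value nearest to 0 was that among male libraries (-0.18, edgeR adjusted p = 0.639). The fall of the neutrophil and platelet markers given for *Pik3cg* stands beside the spleen level of *Pik3r6* as well, and its part was not tested. In the ovaries *Pik3r6* had 124, 138 and 116 in WT and 127, 136 and 151 in L2-cKO (log2 fold change 0.13 ± 0.16, limma adjusted p = 0.725).

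**Figure D3:**
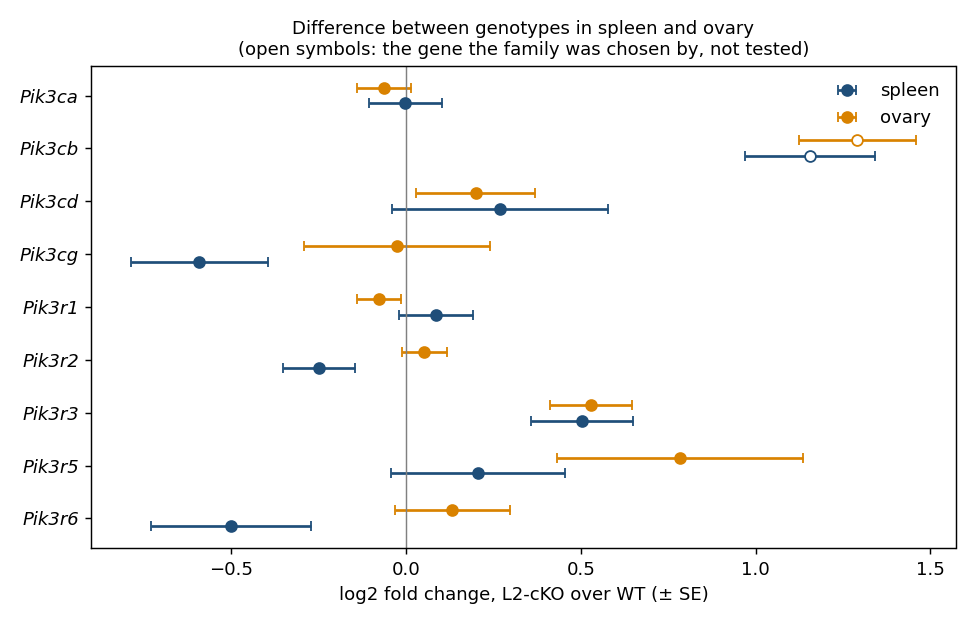
Log2 fold changes of L2-cKO over WT (horizontal axis, ± SE) for the 9 members in the spleen (blue) and the ovary (orange); the open symbols of *Pik3cb* mark the gene by which the family was chosen. *Pik3r3* lies at 0.50 and 0.53, and *Pik3cg* and *Pik3r6* lie below 0 in the spleen and near 0 in the ovary.

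Of the 8 members other than *Pik3cb*, 1 was called higher and 0 lower in the spleen (8 tested by edgeR, 1 called by edgeR and 2 by DESeq2), beside 6.89% and 6.51% of all genes. In the ovary 0 of 8 were called by limma and 1 by DESeq2 on recovered reads, beside 1.23% and 0.351% of all genes. At an unadjusted p below 0.05, 3 members passed in the spleen (*Pik3r3*, *Pik3r2* and *Pik3cg*) and 1 in the ovary (*Pik3r3*). By library values, 1 of 8 lay entirely above WT in the spleen and 1 entirely below, where 9.83% and 10.5% of all genes did so. In the ovary *Pik3r3* lay entirely above WT and no member entirely below, where 13.2% and 12% of all genes did so. *Pik3r5*, at 9.19 to 18.4 in WT and 20.5 to 22.4 in L2-cKO ovaries, is left out of this count because it passed the filter on low values through its L2-cKO libraries. The median log2 fold change of the 8 was 0.04 in the spleen and 0.09 in the ovary, and that of all genes tested -0.02 and -0.00. The counts of the 8 members are near those of all genes, and nothing about the family as a set is read from them.

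The difference between the genotype effects of the tissues was tested in a joint fit of spleen counts and recovered ovary reads, in which 5.22% of 18580 genes were called. None of the 8 members passed in edgeR or in limma voom, and 1 (*Pik3r2*) had an unadjusted p below 0.05 in edgeR. The spleen effect minus the ovary effect was -0.01 ± 0.19 on the log2 scale (SE, adjusted p = 0.995) for *Pik3r3*, -0.59 ± 0.33 (adjusted p = 0.330) for *Pik3cg*, -0.60 ± 0.30 (adjusted p = 0.276) for *Pik3r6* and -0.27 ± 0.13 (adjusted p = 0.239) for *Pik3r2*. For *Pik3cb*, given without a test, it was -0.13 ± 0.27, and 0.10 without L2-cKO ovary 2. This fit treats the 14 libraries as independent although 2 came from 1 animal. Without that animal it was -0.41 for *Pik3cb*, -0.17 (adjusted p = 0.810) for *Pik3cg*, -0.53 (adjusted p = 0.370) for *Pik3r6*, -0.31 (adjusted p = 0.271) for *Pik3r2* and -0.09 (adjusted p = 0.883) for *Pik3r3*, and again 0 of the 8 members passed. The lower spleen levels of *Pik3cg* and *Pik3r6* are thus not shown to be particular to the spleen.

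To compare levels between genes, normalized counts were divided by the summed length of each gene's exons in kilobases. In WT spleens the order of the mean normalized count per kilobase was *Pik3r1* (924 ± 60.4, SD, n = 4), *Pik3r2* (674 ± 74.4), *Pik3cd* (511 ± 200.4), *Pik3ca* (296 ± 35.3), *Pik3cb* (244 ± 33.0), *Pik3cg* (181 ± 42.2), *Pik3r5* (108 ± 26.6), *Pik3r6* (59.5 ± 9.04) and *Pik3r3* (44.0 ± 3.19). The ranges of *Pik3r2* and *Pik3cd*, of *Pik3ca* and *Pik3cb*, and of *Pik3cb* and *Pik3cg* overlapped between animals. Within libraries, the first gene of each of these pairs was the higher in 3 of 4 WT spleens. *Pik3cg* was above *Pik3r5* in 4 of 4 WT spleens, and their ranges overlapped between animals with the exon sum as the length but not with the longest transcript. In L2-cKO spleens *Pik3cb*, at 547 ± 145 (SD, n = 4), lay above *Pik3ca* in 4 of 4 libraries, against 1 of 4 WT spleens, and its range overlapped that of *Pik3r2*.

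In WT ovaries the order by the same measure was *Pik3r2* (933 ± 36.9, SD, n = 3), *Pik3r1* (907 ± 40.6), *Pik3cd* (651 ± 85.2), *Pik3ca* (360.3 ± 26.2), *Pik3r3* (311 ± 11.2), *Pik3cb* (85.0 ± 5.02), *Pik3r6* (34.8 ± 3.10), *Pik3cg* (20.4 ± 2.91) and *Pik3r5* (2.24 ± 0.926). Only the ranges of *Pik3r2* and *Pik3r1* overlapped among neighbours. *Pik3r3*, at rank 9 of 9 in WT spleens, was at rank 5 in WT ovaries, and *Pik3cg* and *Pik3r5* were at ranks 8 and 9 there. *Pik3cd* was at rank 3 in both tissues, at higher levels per kilobase than *Pik3ca* in every WT library. With the longest transcript as the length, *Pik3r1* came before *Pik3r2* in WT ovaries and no other neighbours in either WT order changed places. The tissues are set side by side without a test, since the tables were normalized separately.

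Within the catalytic subunits, *Pik3cb* made up 14.4%, 20.8%, 25.8% and 20.7% of the summed level per kilobase in WT spleens and 36.1%, 36.1%, 48.1% and 20.8% in L2-cKO spleens. It was the most abundant catalytic mRNA in L2-cKO spleen 3 and level with *Pik3cd* (36.0% and 36.1%) in L2-cKO spleens 1 and 2, while in L2-cKO spleen 4 *Pik3cd* made up 54.2%. With the longest transcript as the length, *Pik3cd* was above *Pik3cb* in L2-cKO spleens 1 (684 against 599 per kilobase) and 2 (695 against 608). In L2-cKO spleen 3 *Pik3cb* stayed above *Pik3cd* (808 against 514). In the ovaries the share of *Pik3cb* was 6.79%, 7.54% and 8.66% in WT and 12.03%, 23.0% and 13.8% in L2-cKO, and *Pik3cd* remained the most abundant, at 48.2% to 61.5%. Since the shares sum to 100%, those of the other subunits are lower where *Pik3cb* is higher. The catalytic sum without *Pik3cb* was 988 ± 275 (SD, n = 4) in WT and 1031 ± 270.0 in L2-cKO spleens, and 1032 ± 113 (SD, n = 3) in WT and 1122 ± 192 in L2-cKO ovaries, differences smaller than the spread between animals.

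**Figure D4:**
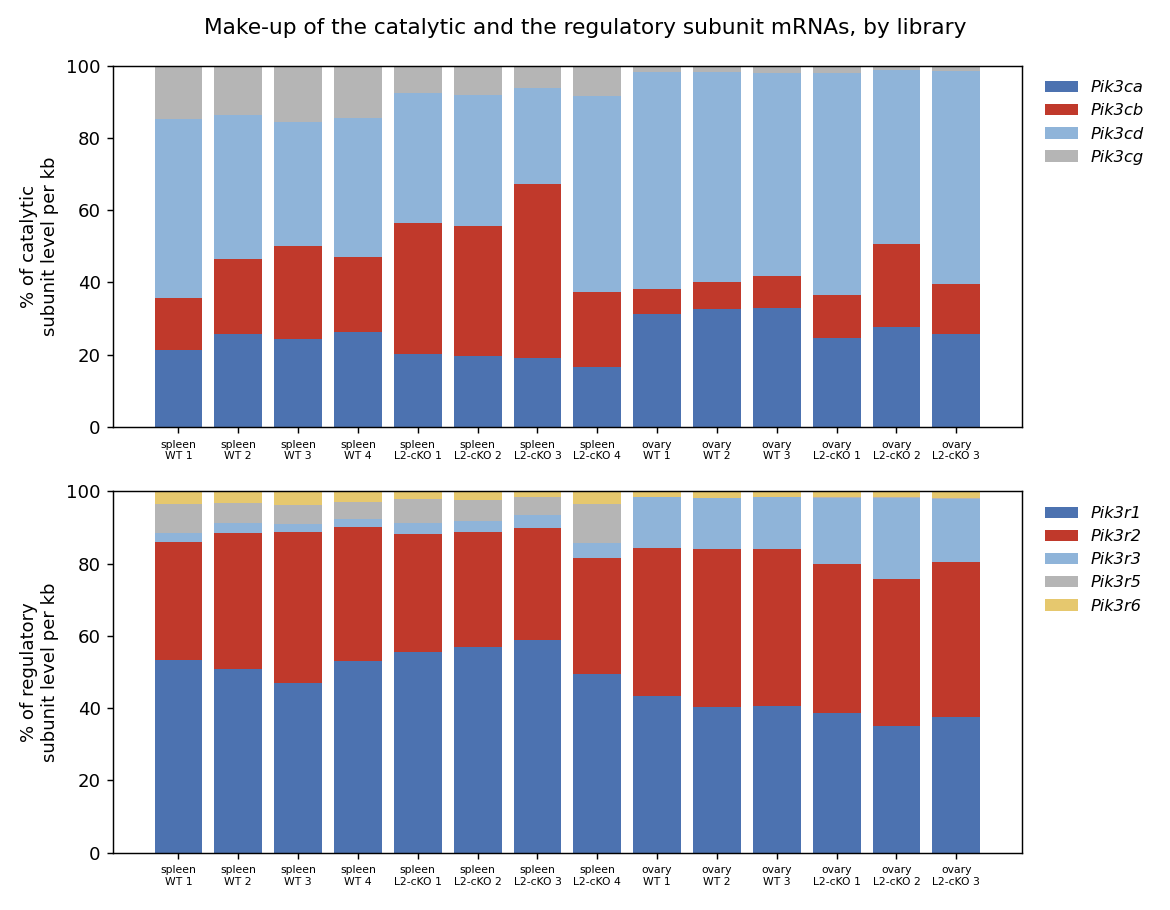
Share of each gene in the summed level per kilobase of the 4 catalytic (top) and the 5 regulatory (bottom) subunit genes, in percent, for each of the 14 libraries. The *Pik3cb* segment spans 14.4% to 25.8% in WT spleens and 20.8% to 48.1% in L2-cKO spleens, and the *Pik3r3* segment is larger in ovaries than in spleens.

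Among the regulatory subunits, *Pik3r1* held 47.0% to 58.7% of the summed level in the 8 spleens and 34.9% to 43.4% in the 6 ovaries. *Pik3r3* held 2.22% to 2.80% in WT spleens and 3.16% to 4.19% in L2-cKO spleens, and 14.04% to 14.5% in WT ovaries and 17.5% to 22.5% in L2-cKO ovaries, without overlap in either tissue. The summed regulatory level per kilobase was 1810.3 ± 63.6 (SD, n = 4) in WT and 1782 ± 51.2 in L2-cKO spleens, which overlapped. In the ovaries it was 2188 ± 44.0 (SD, n = 3) in WT and 2321 ± 77.4 in L2-cKO, with ranges of 2145 to 2233 and 2253 to 2405 that did not. Of single genes tested in the ovary, 13.2% lay entirely above WT. Within this ovary sum the mean of *Pik3r3* was 311 in WT and 452 in L2-cKO. The means were 933 and 967 for *Pik3r2*, 907 and 860 for *Pik3r1*, 34.8 and 38.1 for *Pik3r6*, and 2.24 and 3.81 for *Pik3r5*. The ratio of the class IA catalytic to the class IA regulatory sum was 0.641 ± 0.149 (SD, n = 4) in WT and 0.907 ± 0.129 in L2-cKO spleens, with ranges of 0.550 to 0.863 and 0.820 to 1.099 that overlapped. In the ovaries the ratio was 0.510 ± 0.0536 (SD, n = 3) in WT and 0.578 ± 0.0779 in L2-cKO, with ranges of 0.464 to 0.569 and 0.4999 to 0.656 that overlapped. This ratio holds *Pik3cb* and is a description.

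The genes whose levels most resembled *Pik3cb* were sought over 15202 genes, by the lower of the Pearson correlations over the 8 spleens and over the 6 ovaries on a log2 scale. They were *Chuk* (0.988 in both tissues), which encodes the kinase IKKα of the NF-κB pathway, *Fzd5* (0.984 and 0.982), a Wnt receptor, *Insig1* (0.985 and 0.979), a regulator of sterol synthesis, *Eloa* (0.971 and 0.963), a subunit of the elongin transcription factor, and *Cbwd1* (0.976 and 0.961). Both genotypes enter these correlations, so a shared difference between genotypes is part of them, and they are given as a description. In all 5 genes every L2-cKO library was above every WT library in both tissues. Since *Pik3cb* itself did so and the 5 were chosen by likeness to it, this follows largely from the choice. Of all genes tested, 9.83% did so in the spleen and 13.2% in the ovary. *Chuk* had 2594 to 2894 normalized counts in WT and 3222 to 4279 in L2-cKO spleens, and *Insig1* had 798 to 1082 and 1725 to 2838. The ovary log2 fold changes were 0.64 for *Insig1*, 0.35 for *Fzd5*, 0.32 for *Chuk*, 0.30 for *Cbwd1* and 0.13 for *Eloa*. They are given without a test, since the genes were chosen over these same libraries. Of the family, *Pik3r3* came closest, at rank 379 (0.717 in the spleen and 0.984 in the ovary), while *Pik3cg* had -0.825 in the spleen and *Pik3ca* -0.033.

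Around the family, 97 further genes of the PI3K pathway were grouped by role, and 94 of them were tested in the spleen and 93 in the ovary. In the spleen 5 were called higher and 5 lower, 5.32% each beside 6.89% and 6.51% of all genes, and in the ovary 0 were called by limma, 17 at an unadjusted p below 0.05 and 2 by DESeq2 on recovered reads. The spleen count moved to 20 without L2-cKO spleen 4, 17 without WT spleen 3, 16 without both libraries that stood apart, 6 without L2-cKO spleen 3, and 4 without any 1 of WT spleens 2 and 4 and L2-cKO spleens 1 and 2. Which of the genes named below kept their call in these alternatives is not given. The median log2 fold change of the 94 genes was -0.07 in the spleen, beside -0.02 for all genes.

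Of 15 adaptors and interactors that carry PI3K to receptors, *Gab2*, a docking protein that binds p85, was higher in L2-cKO spleens (1766 to 1944 normalized counts against 878 to 1352 in WT; log2 fold change 0.74 ± 0.14, adjusted p = 0.00841). Its relative *Gab3* was lower (109 to 132 against 149 to 204; -0.65 ± 0.17, adjusted p = 0.0320). Of 29 proteins that read PIP3, 3 were called higher and 3 lower, with *Gab2* and *Gab3* counted in both lists. Over all genes tested in the spleen, 6.89% were called higher and 6.51% lower. *Prex2*, an exchange factor for Rac, had 1002 to 1479 normalized counts against 425 to 636 in WT (1.21 ± 0.18, adjusted p = 0.00273). The TEC-family kinase *Bmx* was lower, with 32.9 to 62.0 against 112 to 229 (-1.53 ± 0.30, adjusted p = 0.0107), as was *Adap1*, a PIP3-binding regulator of ARF6, with 283 to 605 against 634 to 905 (-0.87 ± 0.23, adjusted p = 0.0323). The other calls in this list were *Gab2*, *Gab3* and, named after its value was seen, *Akt1* (0.37, adjusted p = 0.0369).

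In the mTOR arm, 2 of 22 genes tested were called higher and 1 lower in the spleen, beside 6.89% and 6.51% of all genes. *Rptor*, which encodes the RAPTOR subunit of mTOR complex 1, had 1929 to 2729 normalized counts in L2-cKO against 1390.4 to 1884 in WT (0.55 ± 0.13, adjusted p = 0.0264). *Tsc2*, an inhibitor of that complex, had 3463 to 4651 against 2572 to 3423 (0.45 ± 0.12, adjusted p = 0.0394). *Eif4ebp1*, a translation repressor that the complex phosphorylates, had 2067 to 2634 against 2923 to 3959 (-0.54 ± 0.12, adjusted p = 0.0186). Of 20 FOXO genes and FOXO targets tested, 1 was called: *Bcl2l11*, which encodes the pro-apoptotic protein BIM, was lower in L2-cKO spleens (837 to 1049 against 1544 to 2004; -0.92 ± 0.12, adjusted p = 0.00117). In edgeR 0 of 9 lipid phosphatases and 0 of 4 class II and III PI3K genes tested were called in the spleen, with 2 and 1 of them at an unadjusted p below 0.05 and 1 of each list (*Inppl1* and *Pik3c3*) called by DESeq2. Their median log2 fold changes were 0.02 and -0.11.

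**Figure D5:**
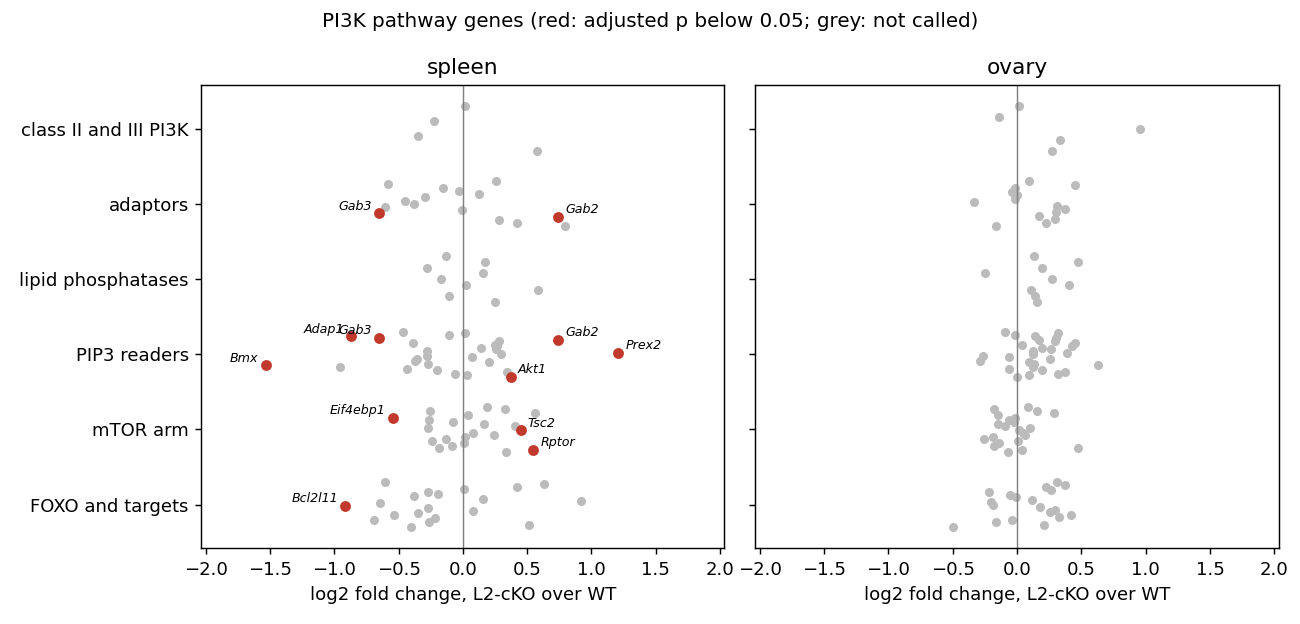
Log2 fold changes of L2-cKO over WT (horizontal axes) of the pathway genes by list, in the spleen (left) and the ovary (right); each point is 1 gene, and red points passed an adjusted p of 0.05. *Bmx* at -1.53 and *Prex2* at 1.21 are the farthest called genes in the spleen, and no ovary point is red.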

How the data were processed

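Poly(A) RNA-seq libraries of 8 spleens and 6 ovaries from 13 animals, 1 of which gave both tissues, were grouped by the sample labels. The authors used Trimmomatic 0.36 for trimming, STAR 2.5.2b for mapping to Ensembl GRCm38 and featureCounts (Subread 1.5.2) for strand-specific counting of uniquely mapped exonic reads; these steps are stated for the spleen, and the ovary followed the same technique. The deposited spleen table holds raw counts. The authors' comparison tables hold normalized signal values, counts divided by 1 size factor per library, and their own fold changes and p-values, which were not used. The spleen signal equals the counts over the size factors within 5.01e-09. For the ovary only normalized signal values were used, and 100% of 111618 values came out as whole reads (tolerance 0.001); genes in that table have at least 61 reads in all, so its totals are of listed genes.

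Spleen counts were tested with edgeR 4.0.16 (quasi-likelihood, TMM; at least 10 counts in at least 4 libraries), ovary values with limma 3.58.1 (trend) on log2(normalized count + 1) for genes with at least 10 in at least 3 libraries, and the difference between tissues with edgeR on counts and recovered reads (a minimum of 10 in 3 of 14 libraries). Fold changes on log2(value + 1) understate those of low genes. Adjusted p-values are Benjamini-Hochberg over all genes tested, with calls below 0.05; no limit on fold change was set. R 4.3.3, DESeq2 1.42.0, Python 3.11.15, pandas 2.3.3, numpy 2.4.6 and matplotlib 3.10.9 were also used, and the fits were tested on simulated data. Lengths and 3′UTRs came from GENCODE M21 (GRCm38). Replicate libraries differed by at least 7.86 times counting error (chi-square per degree of freedom), so none was counted as a duplicate.

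The members, pathway lists and 13 marker lists were chosen with earlier results of these data known. Named were all members, per pathway list and tissue up to 4 called genes with the largest fold change, the 5 genes most like *Pik3cb*, and *Zfp36l2*. Alternatives covered the test, scaling, pseudocount, filter, sex, replicate block, each library left out, transcript length and 3′UTR isoform; leaving out both spleens that stood apart was chosen after the data were seen. A WT spleen that shares the label WT3 with another was numbered 4.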

Additional observations from a re-analysis of the deposited data

Results flagged for a closer look

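In the groups of 4 spleens, 20 sets of values were examined for a library far from the other 3, by its gap to the nearest library over the range of the group (Dixon's test at its critical value for 4 values). Chance flags about 1 in 20 such groups, and 4 were found. The sets share the same spleens, and the class IA ratio holds *Pik3cd*. The flags are thus not independent, and their number is not read as an excess. WT spleen 1 lay apart for *Pik3cd*, at 5072 normalized counts (gap over range 0.913), and for *Pik3r5*, at 819 (0.868). The ratio of class IA catalytic to regulatory level lay apart in WT spleen 1, at 0.863 (gap over range 0.887), and in L2-cKO spleen 4, at 1.099 (0.852). These are the libraries with the highest B cell marker sums of their groups, 75694 and 41447 normalized counts, and their part was not tested.

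The genotype effect differed between tissues for 2 of the 9 named pathway genes in the joint edgeR fit. These 9 were named because they were called in the spleen. Of all 95 pathway genes tested in that fit, the same 2 were called, 2.11% beside 5.22% of all genes. The spleen effect minus the ovary effect was -2.12 ± 0.40 on the log2 scale (SE, adjusted p = 0.00629) for *Bmx* and -0.71 ± 0.17 (SE, adjusted p = 0.0281) for *Bcl2l11*.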

How the results depend on the processing

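Among the 8 tested members the spleen count of 1 call became 2 with DESeq2 (*Pik3r3* and *Pik3cg*) and 2 without both spleens that stood apart (*Pik3cg* and *Pik3r6*). It became 0 with at least 10 counts in all libraries, with sex as a covariate, in males only and with the replicate block, and 0 to 2 without 1 library. In the ovary 0 became 1 with DESeq2 on recovered reads and 0 to 1 without 1 library. The spleen pathway count of 10 became 5 with the replicate block, 16 without both spleens that stood apart and 4 to 20 without 1 library, and the ovary count of 0 became 2 with DESeq2 on recovered reads and 1 with the replicate block.

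Over all genes, the 2267 spleen calls became 1247 with the replicate block and 1038 (without WT 4) to 3012 (without L2-cKO 4) without 1 library, with 1130.0, 1141 and 1234 without WT 2, L2-cKO 1 and L2-cKO 2. The 292 ovary calls became 1116 with DESeq2 on recovered reads, 539 with the block, 31, 41 and 47 without WT 2, 3 and 1, 158 and 161 without L2-cKO 3 and 1, and 408 without L2-cKO 2. The 970 calls for the difference between tissues became 506 (without WT ovary 1) to 1756 (without L2-cKO spleen 4), with 543 and 544 without WT ovaries 2 and 3, 628, 638 and 630.0 without L2-cKO spleens 1 and 2 and WT spleen 4, and 1492 without WT spleen 3. Fits without 1 library rest on fewer samples; the cause of the other moves was not tested.

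Some log2 fold changes changed sign in an alternative. *Pik3ca* in the spleen had log2 fold changes of 0.0012 with DESeq2 and with its size factors, 0.017 without the filter and with sex as a covariate, 0.10 in males, 0.0053 with the block, 0.080 without both spleens that stood apart, and -0.045 to 0.084 without 1 library. Without 1 library, *Pik3cd* had -0.049 to 0.58 and *Pik3r5* -0.067 to 0.39 in the spleen. *Pik3cg* in the ovary had 0.024 with edgeR and 0.029 with DESeq2 on recovered reads, and -0.29 to 0.21 without 1 library. The spleen effect minus the ovary effect had -0.27 to 0.38 for *Pik3cd*, -0.12 to 0.14 for *Pik3r3* and -0.30 to 0.10 for *Pik3cb* without 1 library, and 0.0040 for *Pik3r3* with limma voom.

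The study describes the spleens as pairs matched for age, and the labels do not say which animals form a pair. The replicate numbers were not taken as pairs: deviations of same-numbered WT and L2-cKO libraries correlated at -0.145, 0.0971, 0.183 and -0.31 in the spleen and 0.393, 0.219 and 0.0754 in the ovary, where WT 3 correlated best with L2-cKO 2. With the replicate block *Pik3r3* had 0.50 (adjusted p = 0.148) in the spleen and 0.53 (adjusted p = 0.0677) in the ovary. Depth limits *Pik3r5* in the ovary, with 8 to 25 reads per library. The stricter ovary filter left *Pik3r5* out, and levels per kilobase with the longest transcript moved beyond 1 SD in 20 of 36 group means.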
